A study of Rattus norvegicus with 5 samples.

Results

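The striatum of drug-free control rats was examined here for how H4K5Ac, histone H4 acetylated at lysine residue 5, was spread along and between chromosomes. Members were chosen by their labels: the SS library (saline pretreatment, saline challenge) and the library of input DNA, 2 of the 5 libraries of the series. Tags, the sequenced reads aligned to the genome, were counted in 2558173 non-overlapping 1 kb windows on chromosomes 1 to 20, and SS was divided by input after each was expressed per 1000000 tags. A ratio of 1 is therefore the genome mean.

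Dorsal striatal tissue came from male Sprague-Dawley rats of 330 to 370 g. SS rats received saline injections over a period of weeks, then a saline challenge 16 to 18 h after the last of them, and were euthanized 2 h later. The tissue of 4 animals was pooled into 1 SS library, and the input, labelled untreated and made without the polyclonal antibody against acetylated H4K5 that was used for the others, was 1 library of 4 pooled samples. The other groups received METH (methamphetamine), as a challenge of 5 mg/kg after saline (SM, 3 animals), as pretreatment before saline (MS, 3 animals), or as both (MM, 4 animals). Bulk striatum mixes neurons and glia, so more acetylation per cell and more cells that carry it cannot be told apart. The genome build, rn4, is the one in the submitters' processing notes.

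Acetyl groups on the tail of histone H4 are written by histone acetyltransferases and removed by histone deacetylases, and they loosen the contact of the tail with DNA. Acetylated H4K5 marks the promoters and enhancers of active genes. Newly made H4 also carries this mark before it is assembled into chromatin. Most neurons of the dorsal striatum are medium spiny neurons, which no longer divide. Gene positions on rn4 were not used here, so windows are given by place only and the striatal identity of the tissue was not checked at marker genes.

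SS held 8473714 tags on chromosomes 1 to 20 and input 17471499, a mean of 3.31 and 6.83 tags per 1 kb window, and 20.9% and 14.0% of these windows were empty. SM, MS and MM held 12358680, 5728788 and 9107139 tags. Each group being a single library, spread between replicates could not be measured and no test between groups was possible. All intervals are exact 95% intervals for counting error only.

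In the saline controls, SS over input varied modestly around its mean once windows were broad. The share of SS tags that came from DNA without the mark was not measured. The spread is therefore one of tags, and H4K5Ac itself may vary more. In 100 kb windows, the 1st percentile of SS over input was 0.622 of the genome mean, the median 0.934 and the 99th percentile 1.61, a range of 2.59-fold. Only 4.42% of these windows lay above 0.50 and 6.55% below -0.50 on the log2 scale. The distribution leaned to the right of its median, and 38.7% of windows were above the genome mean. That mean weights windows by their tags, whereas the share counts every window equally. The share therefore does not show that few rich windows balanced many poorer ones. In 1 Mb windows the 1st percentile was 0.722, the median 0.969 and the 99th percentile 1.35, a range of 1.86-fold.

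**Figure D1:**
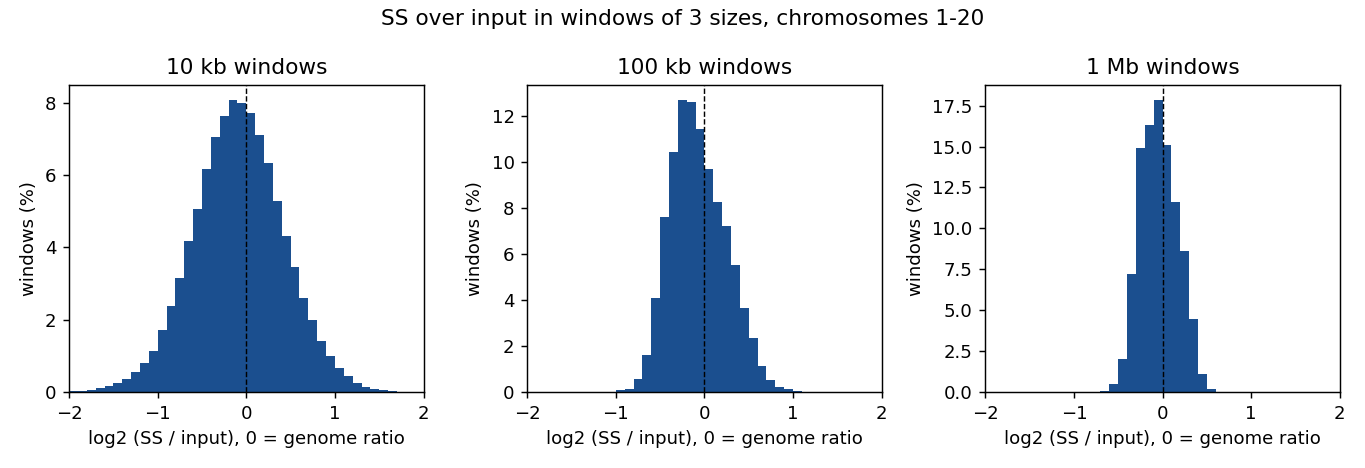
Share of windows (%, vertical axis) by log2 of SS over input (horizontal axis, 0 is the genome mean) in 10 kb, 100 kb and 1 Mb windows of chromosomes 1 to 20. The peak lies below 0 at each size, and the distribution narrows as windows grow, from an observed SD of 0.51 in 10 kb windows to 0.31 in 100 kb and 0.21 in 1 Mb windows.

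Part of that spread is counting error, which shrinks as windows grow, so it was subtracted to compare window sizes. This was done on the share of SS among SS and input tags, with each window weighted by its tags. The values are therefore not the observed SDs less a counting error. What was left, as the SD of log2 of SS over input, was 0.62 in 1 kb windows, 0.42 in 10 kb, 0.31 in 100 kb and 0.21 in 1 Mb windows, or 1.53-, 1.34-, 1.24- and 1.15-fold per SD. The decline was similar on every chromosome: the SD in 100 kb windows ran from 0.29 on chromosome 2 to 0.34 on chromosome 10, and in 1 Mb windows from 0.18 on chromosome 9 to 0.23 on chromosome 10. Taking each size inside the next, 53.9% of the variance of 1 kb windows lay within 10 kb, 20.5% between 10 and 100 kb, 14.4% between 100 kb and 1 Mb and 10.8% between 1 Mb and whole chromosomes. Differences between chromosomes made up 0.308%. SS over input thus varied most over short distances, yet nearly as much again was shared by neighbourhoods wider than 10 kb. Repeated copies of a fragment from the 18 cycles of PCR would, if present, add to the part within 10 kb, and were not tested.

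How much of the genome stood apart from its mean depended on the depth of the window. A window was called higher or lower when the exact interval of its ratio excluded the genome mean. In 1 Mb windows 31.6% were called higher (795 of 2513) and 47.2% lower (1185). In 100 kb windows 22.5% were higher (5409 of 24092) and 35.6% lower (8578). In 10 kb windows these shares were 10.3% (23713 of 229333) and 11.2% (25721), and in 1 kb windows 3.35% (72871 of 2177446) and 2.01% (43747). The interval was not adjusted for the number of windows, so some calls of each size come from counting error. At the median number of tags, a 100 kb window needed a ratio of 1.14 or more, or 0.871 or less, to be called, a 10 kb window 1.53 or 0.621, and a 1 kb window 5.50, while a 1 kb window with the median number of tags (11 in SS and input together) was called lower only with 0 SS tags. Shares called in windows of different size are therefore not comparable. The balance between higher and lower also moved with the scaling: when libraries were scaled on the input-poor part of the genome (10 kb windows whose input was under the median), the share of called windows that were higher went from 48.0 to 57.4% in 10 kb windows, from 38.7 to 49.2% in 100 kb windows and from 40.2 to 52.1% in 1 Mb windows. Higher then outnumbered lower in 10 kb windows (27701 against 20570) and in 1 Mb windows (1025 against 944). With a 99% interval they also did so in 10 kb windows (14910 against 10944), so which direction was more common depended on these settings.

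**Figure D2:**
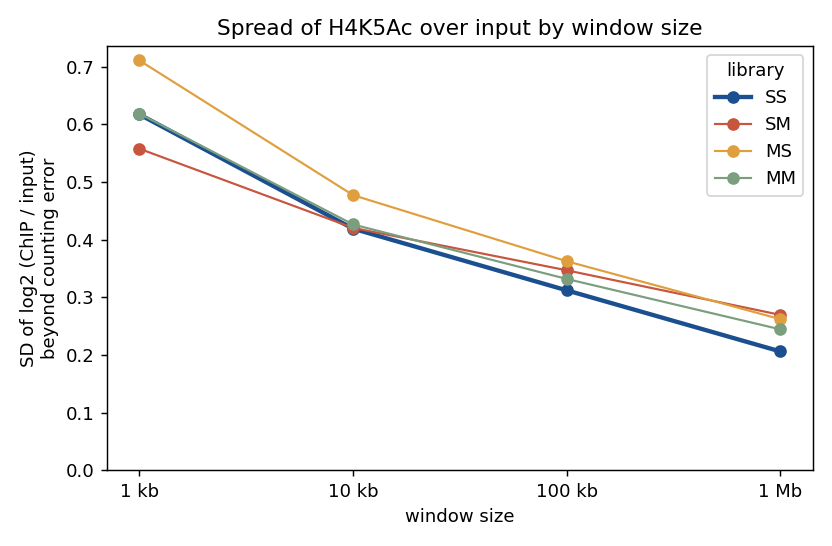
SD of log2 of ChIP over input beyond counting error (vertical axis) by window size (horizontal axis) for each ChIP library over the same input. SS falls from 0.62 in 1 kb to 0.21 in 1 Mb windows, in the middle of the other libraries at 1 kb and below them at 1 Mb.

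Neighbouring windows resembled each other, and the resemblance faded within about 1 Mb. With counting error removed, the correlation between adjacent 100 kb windows of SS over input was 0.651 (range over the 20 chromosomes 0.591 to 0.712). It was 0.454 at 200 kb, 0.245 at 500 kb, 0.120 at 1 Mb, 0.0522 at 2 Mb and 0.0138 at 5 Mb. At 1 Mb the chromosomes ranged from 0.0255 on chromosome 15 to 0.206 on chromosome 13, so the value at that distance is loosely fixed. In 10 kb windows the correlation was 0.589 at 10 kb, 0.343 at 100 kb and 0.0620 at 1 Mb. Adjacent 1 Mb windows still correlated at 0.332, but at 5 Mb the value was 0.0130, with chromosomes on both sides of 0. These correlations are descriptions over pairs of windows (21831 or more for 100 kb windows) that share a library and an input, and windows are not replicates.

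At the finest scale the correlation had a steep and a shallow part. In 1 kb windows it was 0.447 for adjacent windows, 0.332 at 2 kb, 0.286 at 3 kb, 0.249 at 5 kb, 0.222 at 10 kb and 0.132 at 100 kb. It thus lost more between 1 and 3 kb than between 3 and 10 kb. When only windows with an input tag were kept, adjacent windows correlated at 0.590.

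**Figure D3:**
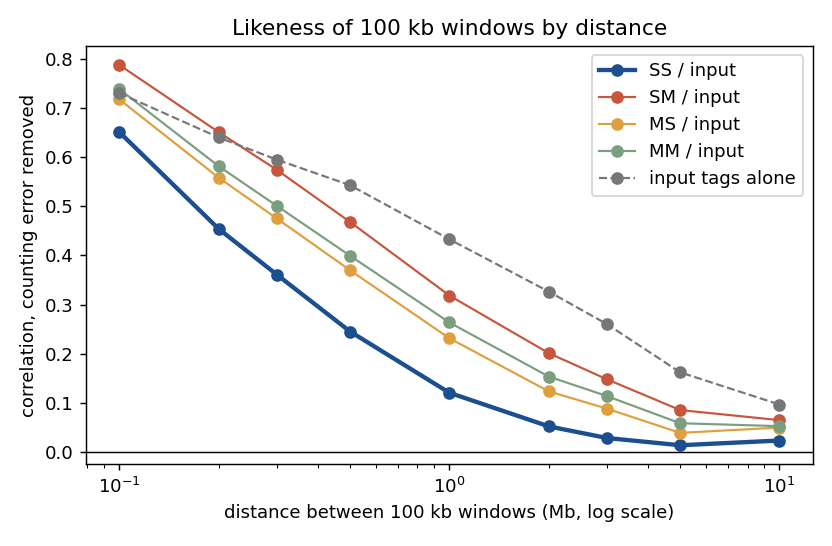
Correlation between 100 kb windows, counting error removed (vertical axis), by the distance between them (horizontal axis, log scale), for each ChIP library over input and for the input tags alone. SS over input starts at 0.651 and is at 0.120 by 1 Mb, where the METH groups lie between 0.231 and 0.318 and the input alone is at 0.433.

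The input was itself uneven, and SS over input moved with it. The tags of the input alone had an SD of 0.43 on the log2 scale in 100 kb windows and a correlation of 0.730 between adjacent windows, 0.433 at 1 Mb and 0.162 at 5 Mb, so its relief was broader than that of SS over input. When 10 kb windows were placed in 5 equal classes by the input tags of the windows on either side, which do not enter the ratio of the window itself, SS over input rose from 0.882 (0.880 to 0.885) in the poorest class to 0.932, 0.984, 1.03 and 1.11 (1.11 to 1.11) in the richest. After the mean of windows with a like number of input tags beside them was subtracted, a step added after the data were seen, the SD was 0.40 in 10 kb, 0.29 in 100 kb and 0.19 in 1 Mb windows. The correlation between 100 kb windows was then 0.580 for adjacent windows and 0.0799 at 1 Mb, and that between adjacent 1 Mb windows fell from 0.332 to 0.166. Either window of an adjacent pair helped to set the class of the other, so the subtraction can itself lower these adjacent values. How far it did so was not tested. Going by the SD, the greater part of the variation of SS over input was present among windows of like input. Base composition and the ease of aligning reads were not tested.

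Windows with a high ratio of SS over input often lay side by side. The top 5% of 100 kb windows (1205 windows, at a ratio of 1.39 or more) included 511 that touched another of them, which is 42.4%. Of all windows beside a top window, 25.7% were themselves in the top 5%, against 5.00% of all windows. The lowest 5% (a ratio of 0.694 or less) behaved similarly, with 36.9% touching another and 23.8% of their neighbours in the same set. Top windows made up 10.1% of chromosome 10 and 3.41% of chromosome 9, and the lowest ones 8.72% of chromosome 20 and 3.69% of chromosome 8.

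Runs of adjacent called windows were nevertheless short. The 5409 higher windows of 100 kb formed 2428 runs, of which 1181 were a single window and 18 reached 1 Mb or more, and the median run was 0.2 Mb. The 8578 lower windows formed 3701 runs with the same median, 1812 of them a single window and 57 of 1 Mb or more. Runs of 1 Mb or more held 3.83% of the higher windows and 8.28% of the lower ones, and runs of 0.5 Mb or more 29.2 and 33.4%, so most called windows lay in shorter runs. A run ends at any window that could not be called, and its length is therefore also a matter of depth. Runs were not recomputed with scaling on input-poor windows, where 6477 windows of 100 kb were higher and 6693 lower.

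The 3 longest runs of higher windows, and of lower windows after them, are given with the sequence beside them. A run ends where a window is not called, so flanks nearer the genome mean follow from the choice and are a description only. The longest, chr10:14700001-16300000, spanned 1.6 Mb with 11550 SS and 16594 input tags, a ratio of 1.44 (1.40 to 1.47), and an equal length on either side was at 1.06. The next, chr5:136400001-137800000, held 7783 SS and 11156 input tags, a ratio of 1.44 (1.40 to 1.48) against 1.03 beside it. The last, chr10:61800001-63200000, held 8201 SS and 12588 input tags, a ratio of 1.34 (1.31 to 1.38) against 1.09 beside it. In the METH libraries, which had no part in choosing them, the same runs were at 1.52, 1.51 and 1.51 (SM, MS and MM, chr10:14700001-16300000), 1.38, 1.46 and 1.40 (chr5:136400001-137800000) and 1.39, 1.45 and 1.38 (chr10:61800001-63200000), all over the same input. The ratios of these runs were thus raised in every ChIP library. The input had a part in choosing the runs and enters each ratio, so the METH values are not independent support.

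At the main scaling, the longest runs of lower windows were longer. The first, chr17:100001-3800000, spanned 3.7 Mb near the start of chromosome 17 with 10619 SS and 31687 input tags, a ratio of 0.691 (0.676 to 0.706). The sequence beside it was at 1.08, nearly all of it after the run because the run began so near the chromosome start. The second, chr6:140900001-142900000, held 3749 SS and 10775 input tags over 2 Mb, a ratio of 0.717 (0.691 to 0.745), and lay beside sequence at 1.01. The last, chr3:149600001-151400000, held 5373 SS and 14964 input tags, a ratio of 0.740 (0.717 to 0.764), between flanks at 1.15. The METH libraries were below 1 there too, with 0.765, 0.716 and 0.755 on chromosome 17, 0.614, 0.595 and 0.676 on chromosome 6 and 0.769, 0.715 and 0.770 on chromosome 3 for SM, MS and MM. These ratios again share the input that helped to choose the runs.

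Among whole 1 Mb windows, the highest was chr3:9000001-10000000, with 6095 SS and 8616 input tags and a ratio of 1.46 (1.41 to 1.51). It was followed by chr10:86000001-87000000, with 6669 and 9451 tags and a ratio of 1.45 (1.41 to 1.501), and by chr18:28000001-29000000, with 5308 and 7565 tags and a ratio of 1.45 (1.40 to 1.499). SS held 0.719, 0.787 and 0.626 tags per kb per 1000000 in these windows, where input held 0.493, 0.541 and 0.433. Over input they were between 1.44 and 1.60 in the METH libraries, so their ratios were raised in every ChIP library. The input tags that helped to choose these windows enter each of these ratios, so the METH values are not independent support.

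The lowest 1 Mb window was chr7:4000001-5000000, with 698 SS and 2239 input tags and a ratio of 0.643 (0.590 to 0.700). The window next to it, chr7:5000001-6000000, was also among the lowest, with 806 and 2477 tags and a ratio of 0.671 (0.619 to 0.727), and between them in rank lay chr17:1000001-2000000, with 2497 and 7881 tags and a ratio of 0.653 (0.624 to 0.683). The pair on chromosome 7 was poor in every library, input included, which held 0.128 and 0.142 tags per kb per 1000000 there. The ChIP libraries also differed there more than at any other named window of 1 Mb: over input, chr7:4000001-5000000 was at 0.919, 0.520 and 0.386 in SM, MS and MM. A low ratio at this place was thus not shared evenly between libraries, whereas chr17:1000001-2000000 was at 0.702, 0.691 and 0.732.

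Between chromosomes the differences were small. SS over input ran from 0.964 (0.960 to 0.969) on chromosome 16 to 1.07 (1.06 to 1.07) on chromosome 10, a 1.11-fold range, and the SD of log2 over the 20 chromosomes was 0.04. Chromosome 12 followed at 1.05 (1.05 to 1.06), then chromosomes 8 at 1.02, 20 at 1.02 and 3 at 1.02. At the low end chromosome 16 was followed by chromosomes 9 at 0.974, 13 at 0.974, 15 at 0.976 and 17 at 0.978. Intervals of neighbours in this order mostly overlapped: that of chromosome 9 was 0.970 to 0.978 and that of chromosome 17 0.974 to 0.982. Chromosome 16 lay below the interval of each of them, and chromosome 10 lay above that of chromosome 12. Of the 20 chromosomes 10 were above 1 and 10 below.

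**Figure D4:**
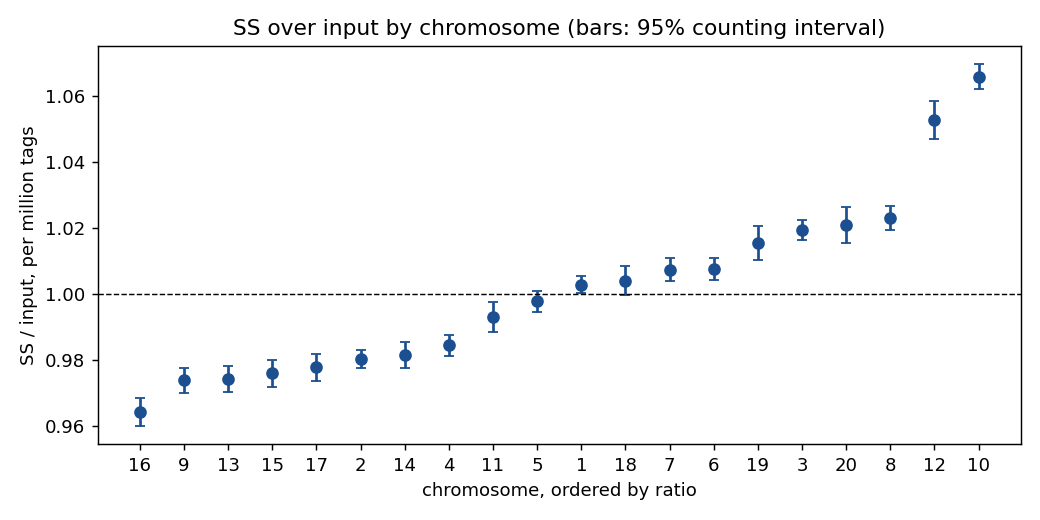
SS over input per 1000000 tags (vertical axis) for chromosomes 1 to 20 in the order of their ratio (horizontal axis), with bars for the exact 95% counting interval. Chromosomes 10 and 12 stand apart at 1.07 and 1.05, and the other 18 lie between 0.964 and 1.02. Chromosomes 10 and 12 were also the densest in input tags.

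The difference between chromosomes showed in how many of their windows were high. On chromosome 10, 38.4% of 100 kb windows were called higher and 31.4% lower, and on chromosome 12 34.2% and 30.4%, the only chromosomes with more higher than lower windows at this scaling. On chromosome 13 these shares were 16.9 and 38.0%, and on chromosome 16 17.9 and 40.7%. They were not computed with scaling on input-poor windows, which moves the balance. Windows with more tags are also called more readily, and chromosomes 10 and 12 were the densest in tags. Every chromosome held windows of both kinds, and the lowest share of either was 16.9%. Chromosome X, which was not among the members, was at 0.991 (0.985 to 0.996) with tags scaled to chromosomes 1 to 20. The outer 5 Mb of chromosomes were at 0.999 (0.996 to 1.00), the 5 Mb inside them at 0.978 (0.976 to 0.981), the next 10 Mb at 1.01 (1.00 to 1.01) and the rest at 1.00 (1.00 to 1.00). Pooled over both ends of the 20 chromosomes, these values showed no steady gradient. Single ends were not examined, and opposite trends among them would cancel.

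Single 1 kb windows were mostly below what this depth could resolve, and the strongest by rank had no input tag at all. By the lower bound of their interval, the 3 strongest were chr12:15713001-15714000 with 19 SS tags and chr8:54207001-54208000 and chr6:130608001-130609000 with 16 each. The lower bounds of their intervals were 9.62-, 7.95- and 7.95-fold over input, and with no input tag no ratio is given. The 1 kb windows on either side together held 47, 21 and 22 input tags. In SM, MS and MM these windows held 24, 10 and 12 tags (chromosome 12), 5, 7 and 14 (chromosome 8) and 4, 3 and 11 (chromosome 6). In all, 9737 windows had 2 or more SS tags and no input tag, and 21 of the 116401 windows with 10 or more SS tags had none. Among windows with 5 or more input tags, a condition set after the data were seen, the strongest by the lower bound of the interval was chr1:199023001-199024000, with 39 SS and 6 input tags and a ratio of 13.4 (5.63 to 38.7). Next came chr12:15825001-15826000 with 33 and 5 tags, a ratio of 13.6 (5.28 to 44.7), and chr2:189732001-189733000 with 36 and 6, a ratio of 12.4 (5.16 to 35.9). These intervals overlap almost wholly. In the first, SS held 4.60 tags per 1000000 against 0.343 in input, and SM, MS and MM held 2.35, 2.09 and 2.75. These windows were chosen for many SS tags beside few input tags, so the choice raises their ratios on both sides. The METH libraries had no part in the choice. The 5 kb on either side of these windows were at 1.57, 1.27 and 1.32.

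To see how SS tags fell off around such summits without choosing them by SS tags, 1 kb windows were picked in the METH libraries added together. They had 20 or more tags and over 4 times the input rate of the window and of its chromosome. The data had been seen when these windows were defined. At the 4156 picked windows SS held 2.05 tags per kb per 1000000, 5.24 times its genome mean, while input held 0.463, 1.18 times its own. The rule used the input tags, and the ratio of 4.43 (4.37 to 4.49) at these windows is therefore a description only. At 1 kb the SS level was 3.59 times its mean, at 2 kb 2.49, at 3 kb 2.18 and at 5 kb 2.00, and it then fell slowly, to 1.89 at 10 kb, 1.47 at 100 kb and 1.26 at 500 kb. Input over the same distances was 1.61, 1.47, 1.43, 1.41, 1.39, 1.26 and 1.18 times its mean. SS over input was thus 2.23 at 1 kb, 1.42 at 5 kb, 1.36 at 10 kb, 1.16 at 100 kb and 1.07 (1.06 to 1.09) at 500 kb. Places picked in METH-treated rats were thus high in the controls too, with most of the excess lost within 2 kb and a slow decline beyond. Other picked windows were not left out at these distances, so they can raise the levels beside a picked window.

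**Figure D5:**
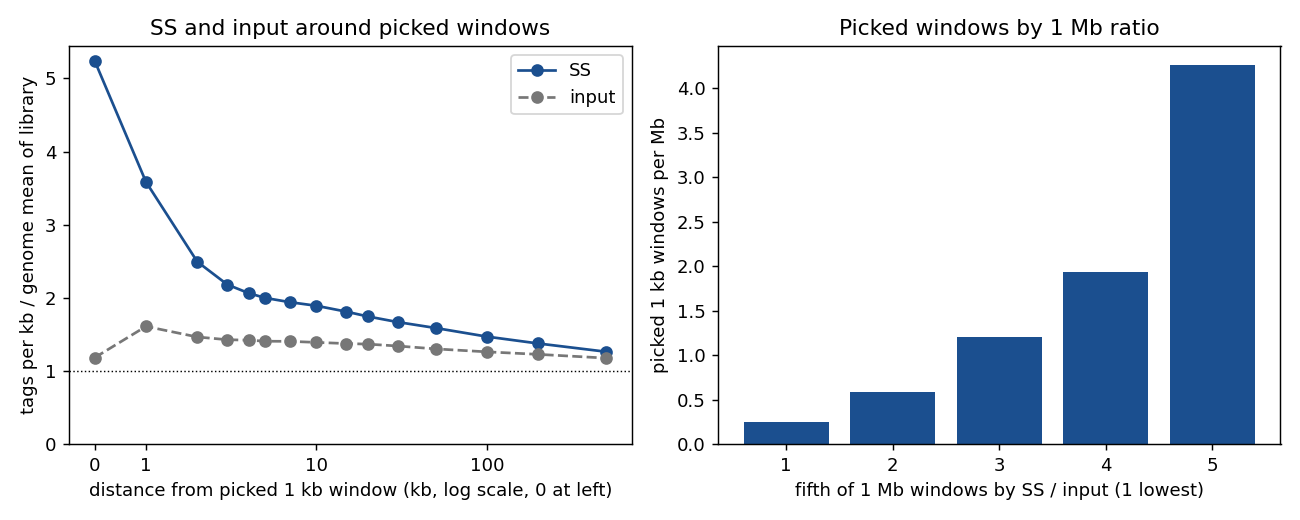
Left, tags per kb relative to the library's genome mean (vertical axis) for SS and input by distance from the 1 kb windows picked in the METH libraries (horizontal axis, log scale, with 0 at the left end). Right, number of picked windows per Mb (vertical axis) in 5 equal classes of 1 Mb windows by SS over input, lowest class first, with picked windows and 5 kb on either side left out of the ratio. SS falls from 5.24 to 2.00 times its mean within 5 kb and is at 1.26 at 500 kb, and picked windows rise from 0.252 to 4.26 per Mb.

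Windows of 1 Mb with a higher ratio held more picked windows. When 1 Mb windows were placed in 5 equal classes by SS over input, computed without the picked windows and the 5 kb on either side, the number of picked windows per Mb was 0.252, 0.583, 1.21, 1.93 and 4.26 from the lowest to the highest class. In the lowest class 82.7% of 1 Mb windows held none, and in the highest 11.95%. The median ratio of the classes ran from 0.826 to 1.17. Input rose over the same classes, from a median of 318.7 to 473.3 tags per Mb per 1000000. With the classes formed inside 3 equal groups of 1 Mb windows by input tags, picked windows per Mb went from 0.0476 to 0.665 where input was poorest, from 0.482 to 2.74 in the middle and from 1.24 to 5.98 where it was richest. Between the end classes the difference was 16.9-fold without these groups and 5.31-fold within them, and it had the same direction in each group. The threshold for picking was a fixed multiple of the input of the window or of its chromosome's mean, whichever was greater. A region raised as a whole passes it more easily. Where input is below the chromosome's mean, a window needs a higher multiple of its own input to pass. Lowering the threshold from 4 to 3 times input took the number picked from 4156 to 16095. How much of the gradient came from this rule was not tested, and the counts do not show that narrow summits and the broad level were linked beyond it.

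Beside the METH groups, the control lay lowest in its broad relief and among them in its fine relief. In 1 Mb windows SS had an SD of log2 of ChIP over input of 0.21, against 0.27 (SM), 0.26 (MS) and 0.24 (MM), and over whole chromosomes 0.04, 0.08, 0.06 and 0.06. In 1 kb windows SS, at 0.62, lay between SM at 0.56 and MS at 0.71, and beside MM at 0.62. The correlation between 100 kb windows 1 Mb apart was 0.120 in SS and 0.318, 0.231 and 0.264 in SM, MS and MM. The groups also differed in how they moved with input: between the poorest and the richest class of 10 kb windows, SS over input rose from 0.882 to 1.11, while SM rose from 0.779 to 1.21, MS from 0.804 to 1.18 and MM from 0.808 to 1.18. With input density subtracted as above, the correlation at 1 Mb was 0.0799 in SS and 0.0768, 0.100 and 0.0874 in SM, MS and MM, and the SD in 100 kb windows 0.29, 0.26, 0.30 and 0.27, so that SS lay within the range of the METH libraries in both. Adjacent windows changed order: the correlation between adjacent 100 kb windows was lowest in SS before the subtraction (0.651, against 0.787, 0.717 and 0.738 in SM, MS and MM) and highest after it (0.580, against 0.497, 0.541 and 0.525). Between adjacent 1 Mb windows it was 0.332 in SS against 0.554, 0.474 and 0.508 before and 0.166 against 0.0317, 0.128 and 0.0832 after. The SD in 1 Mb windows was then 0.19 in SS and 0.21, 0.23 and 0.20 in SM, MS and MM. In each adjacent pair, the input of either window helped to set the class of the other. The subtraction can therefore itself lower the correlation of adjacent windows, and more so in libraries that moved more with input. How far it did so was not tested, and the changed order of adjacent windows is a description only. All 4 comparisons share the input library, each group is 1 library, and treatment and library cannot be told apart. The share of tags from DNA without the mark was not measured in any library, and it bears on each SD.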

How the data were processed

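H4K5Ac ChIP-Seq of 1 pooled library per group (SS, SM, MS, MM) and 1 input library was used. The authors used Gerald to align 41 bases from the start of every read, and deposited raw counts of the tags within 1 kb around every 100 bp step, without normalization or correction for input. The build is rn4 per the labels. For pipeline version, alignment filters and removal of repeated tags, the sources used here give nothing. The members and settings were chosen with earlier results of these data known.

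Every 10th step gave non-overlapping 1 kb windows, which were summed to 10 kb, 100 kb and 1 Mb. Larger windows needed an input tag in 50% or more of their 1 kb windows, which kept 89.6, 94.2 and 98.5% of them, and 1 kb windows needed 2 tags. Counts of 0.5 were added for log2 percentiles. Spread and correlation were computed from the share of SS among SS and input tags, with binomial variance subtracted and the rest converted to log2 at the genome mean, an approximation that is loosest in 1 kb windows. For the spread, windows were weighted by their tags. For SS alone and input alone, spread and correlation came instead from unweighted tag counts, with Poisson variance subtracted. Ratio intervals were exact (Clopper-Pearson, 95%). The scripts were tested on simulated counts. Around picked windows, and among 1 kb windows with 5 input tags, choices were made after the data were seen. Other named windows followed a rule set with the design: the 3 highest and 3 lowest 1 Mb windows, the 3 longest runs of each direction and the 3 strongest 1 kb windows. No gene was assigned, because no annotation of rn4 was used. Python 3.11.15, NumPy 2.4.6, SciPy 1.17.1, pandas 2.3.3 and matplotlib 3.10.9 were used.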

Additional observations from a re-analysis of the deposited data

How the results depend on the processing

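Of the values recomputed under other settings, 124 stayed within the spread over the 20 chromosomes, the counting interval or, for counts, 1.5 times, and 23 moved further. Some of the 124 could not move. Coverage filters do not act on 1 kb windows or whole chromosomes, and the scaling does not enter correlations, chromosome differences or the share of top windows side by side. The balance of higher and lower windows turned with scaling on input-poor windows in 10 kb (27701 against 20570) and 1 Mb windows (1025 against 944). The shifted tiling, chromosome X, both coverage filters and leaving out excess input moved none. Without the strongest 1 kb windows the SD of log2 of SS over input was 0.58 in 1 kb, 0.39 in 10 kb and 0.29 in 100 kb windows and the chromosome range 1.10-fold. Scaling on input-poor windows gave an SD of 0.64 in 1 kb windows. With 1 kb windows that hold an input tag, chosen after the data were seen, the SD was 0.60 and the correlation of adjacent windows 0.590. With input density subtracted, also chosen then, the SD in 100 kb windows was 0.29 and the correlation of adjacent ones 0.580, which the subtraction itself can lower. With the 99% interval, 14910 windows of 10 kb were higher and 10944 lower, fewer by construction and again with the balance turned. SS alone, without input, gave SDs of 1.00, 0.76, 0.64 and 0.50 from 1 kb to 1 Mb, correlations of 0.584 (1 kb), 0.715 (100 kb) and 0.319 (100 kb, at 1 Mb), a chromosome range of 1.47-fold and an SD over chromosomes of 0.15. Differences that input also holds are then counted. The SDs and correlations of windows were also computed in another way, from unweighted tag counts. Their sizes can therefore not be set directly against the main ones. Around picked windows, a threshold of 3 times input (16095 windows) gave a ratio of 3.41 at 0 kb and 1.34 at 10 kb, and the gradient over 1 Mb classes was 5.31-fold within input groups. At least 40 tags, or an input tag, moved none of these. Both kept nearly all of the 4156 picked windows (4111 and 4155), so they tested little. No paired analysis was possible because each group is 1 library and no test was made. Depth limits single 1 kb windows most.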
